A study of Sus scrofa with 4 samples.

Results

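Lysosomes are acidic compartments in which hydrolases break down proteins, glycans and lipids that arrive by endocytosis and autophagy. Most soluble hydrolases are tagged with mannose 6-phosphate in the Golgi, carried forward by mannose 6-phosphate receptors in clathrin-coated vesicles with the AP-1 adaptor, and released in the acid lumen that the V-ATPase proton pump maintains. The transcription factors TFEB and TFE3, with their relative MITF, are known activators of many of these genes. In the ovary, granulosa cells use lysosomes to free cholesterol from lipoproteins for steroid synthesis. The 43 genes described here were taken by gene symbol from a list of lysosomal hydrolases, membrane proteins, sorting proteins and transcription factors. The list was chosen with earlier results of these data known. Each symbol matched 1 of the 20491 genes in the deposited table. Of the 43 genes, 40 carried the KEGG lysosome term in that table, and NAGLU, TFEB and TFE3 did not.

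The study measured RNA in pig follicle granulosa cells, the somatic cells around the oocyte, by RNA sequencing. It compared 2 libraries from cells transfected to interfere with YTHDF2 (siYTHDF2) with 2 libraries from a transfection negative control. YTHDF2 reads N6-methyladenosine in mRNA and promotes decay of the bound transcripts. The series title ties YTHDF2 to proliferation driven by the neurotrophin BDNF, but the labels of the 4 libraries name no BDNF treatment, siRNA sequence, time, animal or separate culture, so p-values measure only the spread between libraries, which may be technical. The labels name no age or strain of the pigs either.

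YTHDF2 was lower in both siYTHDF2 libraries, at 35.5% of the control mean (log2 fold change -1.49, SE 0.09, edgeR adjusted p = 1.49e-05). Total counts were 47209177 and 54203550 in the siYTHDF2 libraries and 53331003 and 54841851 in the control libraries. The granulosa markers FSHR and FOXL2 were detected at 4.35 to 11.5 CPM, the counts after TMM scaling for library size, while CYP19A1, the aromatase of mature granulosa cells, stayed at or below 0.204 CPM. The 14 granulosa markers summed to 3267 and 3392 CPM in siYTHDF2 libraries and 3418 and 3259 CPM in control libraries. Of these, SERPINE2 and CDH2 were called higher, INHBB lower and 10 were not called. GJA1 held most of the sum, at 2106 and 2246 CPM in siYTHDF2 libraries and 2515 and 2386 CPM in control libraries. GJA1 was not called (edgeR adjusted p = 0.104), though its siYTHDF2 pair lay below its control pair. The sum therefore says little about the other markers. Markers of theca and stroma moved with the groups. Their summed level was 8753 and 8483 CPM in siYTHDF2 libraries and 17510 and 17830 CPM in control libraries. ACTA2 held most of it, with 6639 and 6286 CPM in siYTHDF2 libraries and 12150 and 12800 CPM in control libraries. Of the 11 listed markers, 7 were lower and 1, DES, was higher. Macrophage and leukocyte markers, from cells rich in lysosomes, summed to 6.85 and 6.42 CPM in siYTHDF2 libraries and 9.02 and 8.99 CPM in control libraries. CD14 was the largest part of the sum, at 4.18 and 2.99 CPM in siYTHDF2 libraries and 5.39 and 5.38 CPM in control libraries. None of these 13 leukocyte markers was called in edgeR (8 were too low to test, 1, CD14, was lower at an unadjusted p under 0.05, and DESeq2 and limma called 0), and PTPRC, the pan-leukocyte marker CD45, was at most 0.13 CPM. In bulk RNA, fewer cells of a type and less RNA per cell cannot be told apart, and the part of the stromal marker difference in the results below was not tested.

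Lysosome genes were mostly lower after interference with YTHDF2. The transcription factors TFEB and TFE3 and the sorting receptor M6PR were not called. CLTB and AP1S1, of the clathrin coat and the AP-1 adaptor, were higher. MITF, the relative of TFEB and TFE3 that is not among the 43 genes, was lower (log2 fold change -1.33, edgeR adjusted p = 0.000136). Of the 43 genes, 23 were lower, 2 were higher and 18 were not called, by the quasi-likelihood test of edgeR with p-values adjusted over all 15552 genes tested and a threshold of 0.05. Over all tested genes 10.6% were lower and 9.05% higher. Among the 9092 genes with a mean of at least 10 CPM, which is closer to the level of these genes, 14.2% were lower and 13.5% higher. Because the 43 genes were chosen with earlier results of these data known, the gap to these shares is descriptive and was not tested. The median log2 fold change was -0.30 for the 43 genes and 0.00 for all tested genes. Both siYTHDF2 libraries lay below both control libraries for 29 of the 43 genes, against 30.0% of all tested genes, and above them for 5, against 30.1%. All 43 genes passed the filter on low counts, with 127 to 88576 counts per library.

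The changes were moderate in size. Of the 25 called genes, 6 changed by at least 1.5-fold and 3 of these by at least 2-fold. Together the 43 genes took 0.872% and 0.871% of all counts in the siYTHDF2 libraries and 1.02% and 1.07% in the control libraries.

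**Figure D1:**
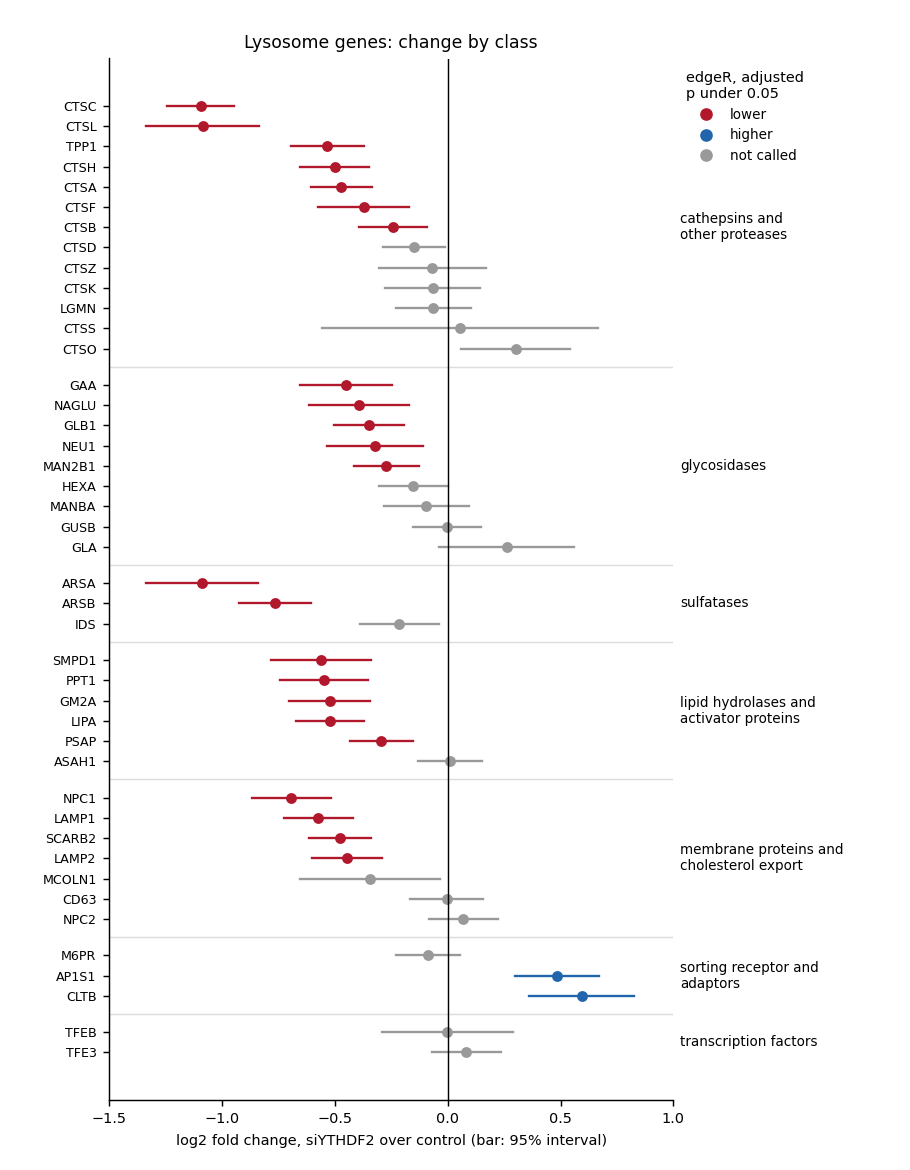
Log2 fold change, siYTHDF2 over control, of each lysosome gene (point) with its 95% interval (bar), grouped by class, from edgeR on 2 libraries per group. The hydrolase classes sit mostly left of 0, from -1.09 for CTSC upward, whereas AP1S1 and CLTB sit right of 0 and TFEB and TFE3 lie at it.

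Levels per transcript length spanned a wide range. In control libraries the mean FPKM, the deposited length-scaled level, was highest for the tetraspanin CD63 (438.5 FPKM), followed by the protease CTSB (265.5 FPKM), the saposin precursor PSAP (256.5 FPKM), the cholesterol carrier NPC2 (203.9 FPKM) and the protease CTSD (203.5 FPKM). NPC2 and CTSD did not differ beyond their spread in this order. At the low end stood MCOLN1 at 3.61 FPKM and CTSS, the cathepsin of antigen-presenting cells, at 0.583 FPKM. Of the 5 most abundant genes, CTSB and PSAP were called lower and CD63, NPC2 and CTSD were not called.

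**Figure D2:**
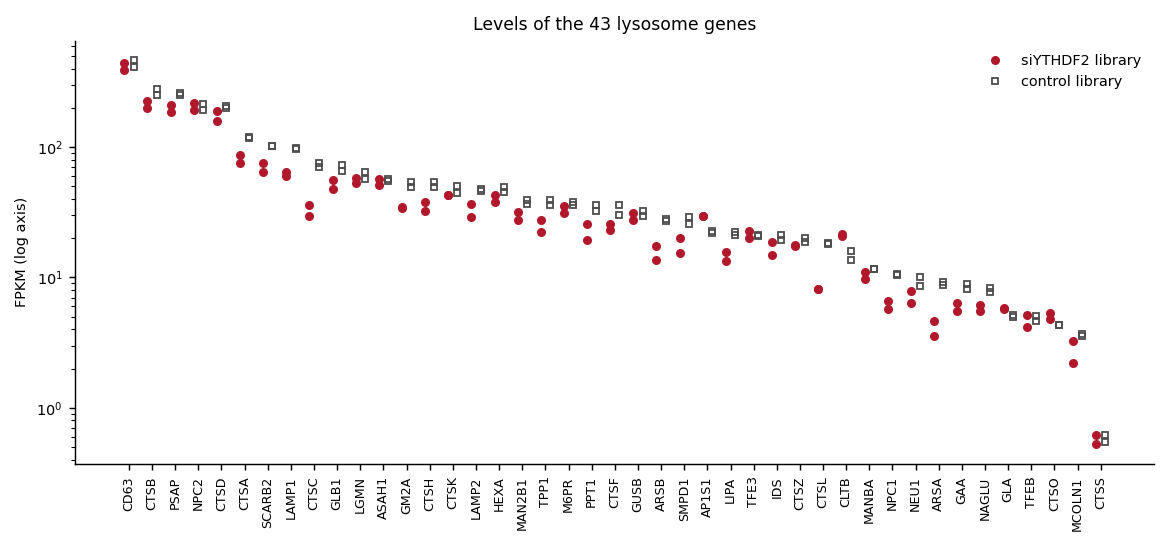
FPKM of each gene (log axis) in the 2 siYTHDF2 libraries (filled circles) and the 2 control libraries (open squares), ordered by the control mean. CD63 is the highest and CTSS the lowest, and genes called lower occur from CTSB at the upper end to NAGLU at the lower end.

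Over the 31 hydrolases and activator proteins together, edgeR called 19 lower and 0 higher. Without adjustment 1 of them, CTSO, was higher at a p under 0.05, and DESeq2 and limma on log2(FPKM + 1) called 0 higher. Among the cathepsins and other lysosomal proteases, 7 of 13 were lower and none was higher (median log2 fold change -0.24, beside 0.00 for all tested genes). CTSC, a dipeptidyl peptidase that activates serine proteases in immune cells, stood at 406 and 427 CPM in siYTHDF2 libraries and 866 and 913 CPM in control libraries. The groups were far apart relative to the gap within each pair. At 46.8% of the control mean it had a log2 fold change of -1.09 with an SE of 0.07 (adjusted p = 1.38e-05). CTSC, ENSSSCG00000014924, lies on chromosome 9 from 21726997 to 21761516 on the minus strand, by the positions of the deposited table. CTSL, a cysteine endopeptidase, had 16.9 and 14.6 CPM in siYTHDF2 libraries and 33.3 and 33.6 CPM in control libraries, from 805 to 1816 counts. This gene, ENSSSCG00000010948 on chromosome 10 from 27668264 to 27674618, was therefore also close to 2-fold lower, at 47.2% of the control mean (adjusted p = 0.000249).

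The other lower proteases fell by less. TPP1, a serine protease that removes tripeptides, had 116 and 124 CPM in siYTHDF2 libraries and 181 and 166 CPM in control libraries (69.1% of the control mean, adjusted p = 0.00123). CTSH, an aminopeptidase, had 121 and 122 CPM in siYTHDF2 libraries and 165 and 178 CPM in control libraries (70.7%, adjusted p = 0.00123). CTSA, a carboxypeptidase that protects other enzymes from breakdown, had 217 and 217 CPM in siYTHDF2 libraries and 299.9 and 301 CPM in control libraries (72.1%, adjusted p = 0.000918). For each of these genes the siYTHDF2 pair lay below the control pair. CTSF had 65.3 and 62.3 CPM in siYTHDF2 libraries and 75.9 and 89.3 CPM in control libraries (log2 fold change -0.37, SE 0.09, adjusted p = 0.0197). CTSB, the most abundant cathepsin, had 1283 and 1246 CPM in siYTHDF2 libraries and 1436 and 1559 CPM in control libraries (log2 fold change -0.24, SE 0.07, adjusted p = 0.0319). Both were lower in every library of the siYTHDF2 pair, but the calls depended on single libraries. That of CTSB also depended on the test, since limma on log2(FPKM + 1) did not call it (adjusted p = 0.0906). The CTSF call was lost without siYTHDF2 replicate 2 (adjusted p = 0.0501) and without control replicate 2 (adjusted p = 0.0928; range 0.00271 to 0.110 over 14 alternatives), and the CTSB call without siYTHDF2 replicate 1 (adjusted p = 0.0854), siYTHDF2 replicate 2 (adjusted p = 0.140) or control replicate 2 (adjusted p = 0.163; range 0.00378 to 0.205).

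The remaining 6 proteases were not called. CTSD, the main aspartic protease, had 431 and 442 CPM in siYTHDF2 libraries and 479.6 and 489 CPM in control libraries, without overlap (log2 fold change -0.15, 95% interval -0.29 to -0.01, adjusted p = 0.121). CTSO was the only protease with a positive fold change and separate groups, at 21.3 and 20.2 CPM in siYTHDF2 libraries and 17.0 and 16.6 CPM in control libraries (adjusted p = 0.0811). CTSK, a collagen-degrading cathepsin, CTSZ, a carboxypeptidase, and LGMN, which cleaves after asparagine and processes cathepsins, overlapped between groups with log2 fold changes of -0.07, -0.07 and -0.06. The 95% interval was -0.28 to 0.14 for CTSK, -0.30 to 0.17 for CTSZ and -0.23 to 0.10 for LGMN. CTSS rested on 127 to 150 counts per library, and its 95% interval of -0.56 to 0.67 includes changes in either direction. CTSK and CTSS are neighbours on chromosome 4, with 12922 bases and no other listed gene between them, yet CTSK stood at 42.9 FPKM in siYTHDF2 and 47.3 FPKM in control libraries and CTSS at 0.570 and 0.583 FPKM.

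**Figure D3:**
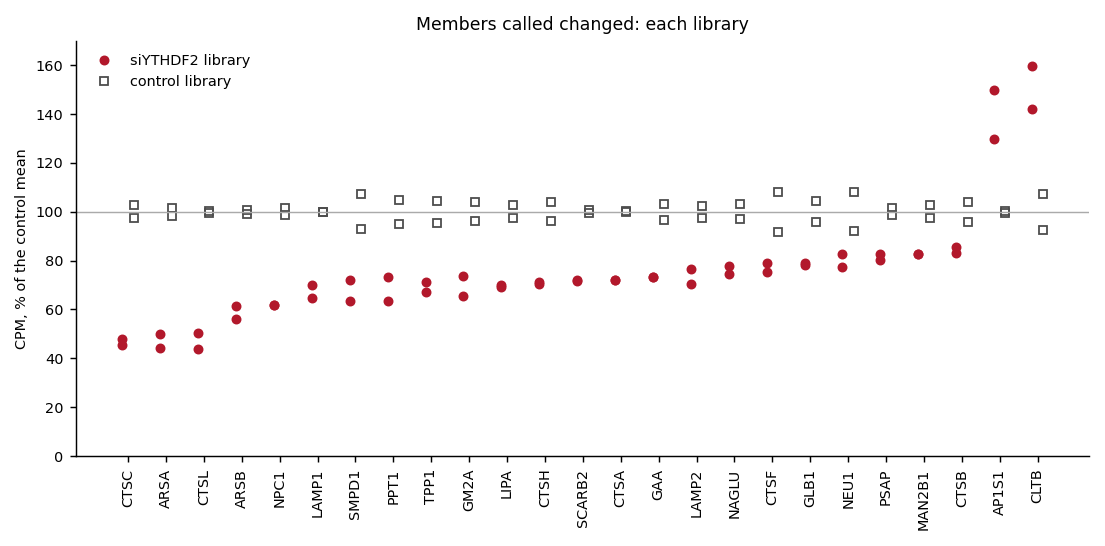
CPM of the 25 called genes in each siYTHDF2 library (filled circles) and each control library (open squares), as a percentage of the control mean, ordered by log2 fold change. CTSC, ARSA and CTSL lie near 47% in siYTHDF2 libraries, most others between 60% and 85%, and AP1S1 and CLTB lie above both controls.

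Of the 3 sulfatases, 2 were lower, and both changed by at least 1.5-fold. ARSA, which removes sulfate from the myelin lipid sulfatide, had 13.7 and 15.4 CPM in siYTHDF2 libraries and 30.4 and 31.5 CPM in control libraries. ARSB, which acts on dermatan and chondroitin sulfate of the extracellular matrix, had 83.6 and 91.2 CPM in siYTHDF2 libraries and 147 and 149.7 CPM in control libraries. The groups did not overlap for either gene, with log2 fold changes of -1.09 (SE 0.11, adjusted p = 0.000237) for ARSA on chromosome 5 (107186 to 111514) and -0.77 (SE 0.07, adjusted p = 0.000138) for ARSB on chromosome 2 (87614963 to 87778447). IDS, the iduronate sulfatase of heparan and dermatan sulfate breakdown, had 152 and 165 CPM in siYTHDF2 libraries and 194 and 173 CPM in control libraries. It was not called (log2 fold change -0.21, adjusted p = 0.0826), although without control replicate 2 it was (adjusted p = 0.0340; range 0.0152 to 0.389 over 14 alternatives).

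Of the 6 lipid hydrolases and activator proteins, 5 were lower (median log2 fold change -0.52). SMPD1, the acid sphingomyelinase, had 40.4 and 45.7 CPM in siYTHDF2 libraries and 68.1 and 59.0 CPM in control libraries. PPT1, which removes palmitate from proteins, had 79.0 and 90.8 CPM in siYTHDF2 libraries and 118 and 130.3 CPM in control libraries. LIPA, the acid lipase that frees cholesterol from cholesteryl esters, had 91.2 and 92.4 CPM in siYTHDF2 libraries and 128 and 135 CPM in control libraries. These 3 genes were at 67.8%, 68.4% and 69.6% of their control means, with adjusted p = 0.00449, 0.00265 and 0.000886 in edgeR. GM2A, which presents ganglioside GM2 to beta-hexosaminidase, had 93.8 and 83.5 CPM in siYTHDF2 libraries and 122 and 132 CPM in control libraries (69.6%, adjusted p = 0.00220). PSAP, the precursor of the saposins that assist sphingolipid hydrolases, had 1335 and 1296 CPM in siYTHDF2 libraries and 1590.0 and 1639 CPM in control libraries (81.5%, adjusted p = 0.0106). The PSAP call was lost without siYTHDF2 replicate 2 (adjusted p = 0.0622; range 7.89e-05 to 0.123 over 14 alternatives). ASAH1, the acid ceramidase, was the exception at 221 and 214 CPM in siYTHDF2 libraries and 212 and 219.5 CPM in control libraries (log2 fold change 0.01, 95% interval -0.13 to 0.15).

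Among 9 glycosidases 5 were lower, none was higher, and the median log2 fold change was -0.27. GAA, which degrades glycogen, had 30.2 and 30.3 CPM in siYTHDF2 libraries and 39.9 and 42.7 CPM in control libraries (log2 fold change -0.45, SE 0.09, adjusted p = 0.00888). GLB1, the beta-galactosidase, had 116 and 117 CPM in siYTHDF2 libraries and 142 and 154 CPM in control libraries (log2 fold change -0.35, SE 0.07, adjusted p = 0.00828). NEU1, the sialidase, had 45.0 and 48.0 CPM in siYTHDF2 libraries and 53.5 and 62.8 CPM in control libraries (log2 fold change -0.32, SE 0.10, adjusted p = 0.0421). GLB1 and NEU1 form a complex with CTSA in the lysosome, so all 3 genes of that complex were called lower. NAGLU, of heparan sulfate breakdown, had 24.8 and 23.8 CPM in siYTHDF2 libraries and 30.9 and 32.9 CPM in control libraries (adjusted p = 0.0231). MAN2B1, the alpha-mannosidase, had 156 and 156 CPM in siYTHDF2 libraries and 183 and 194 CPM in control libraries (adjusted p = 0.0180).

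Calls of 3 glycosidases depended on single libraries and on the test used. With all libraries kept, limma on log2(FPKM + 1) did not call NEU1 (adjusted p = 0.104), NAGLU (adjusted p = 0.0503) or MAN2B1 (adjusted p = 0.0941). The NEU1 call was lost without siYTHDF2 replicate 1 (adjusted p = 0.142) and without control replicate 2 (adjusted p = 0.223; range 0.0144 to 0.246). The NAGLU call was lost without siYTHDF2 replicate 2 (adjusted p = 0.0813) and without control replicate 2 (adjusted p = 0.0861; range 0.0116 to 0.130). For MAN2B1 it was lost without siYTHDF2 replicate 1 (adjusted p = 0.0627), siYTHDF2 replicate 2 (adjusted p = 0.0604) or control replicate 2 (adjusted p = 0.0792; range 0.00366 to 0.206).

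The 4 glycosidases that were not called differed in direction. HEXA, the alpha subunit of beta-hexosaminidase, had a log2 fold change of -0.15 (adjusted p = 0.149). MANBA, the beta-mannosidase, stood at 93.7% of the control mean and GUSB, the beta-glucuronidase, at 99.7%. GLA, the alpha-galactosidase, lay higher at 17.2 and 14.4 CPM in siYTHDF2 libraries against 13.0 and 13.3 CPM in control libraries (log2 fold change 0.26, 95% interval -0.04 to 0.56, adjusted p = 0.208).

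Of the 7 membrane and cholesterol-export genes, 4 were lower, all of them membrane proteins, and 0 were higher in edgeR, in DESeq2, in limma or at an unadjusted p under 0.05 (median log2 fold change -0.45). LAMP1, a main glycoprotein of the lysosomal membrane, had 162 and 149 CPM in siYTHDF2 libraries and 231 and 231 CPM in control libraries. LAMP2, its relative with a role in autophagy, had 344 and 374 CPM in siYTHDF2 libraries and 501.5 and 477.5 CPM in control libraries. SCARB2, an integral protein of the lysosomal membrane, had 417 and 420.3 CPM in siYTHDF2 libraries and 586 and 579 CPM in control libraries. The siYTHDF2 pair was below the control pair for these 3 genes, with log2 fold changes of -0.57 (SE 0.07, adjusted p = 0.000556), -0.45 (SE 0.07, adjusted p = 0.00228) and -0.48 (SE 0.06, adjusted p = 0.000846).

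In lysosomal cholesterol export, NPC1 was called lower and NPC2 was not called. NPC1, the membrane protein of this step, had 38.8 and 38.7 CPM in siYTHDF2 libraries and 63.5 and 61.8 CPM in control libraries, a log2 fold change of -0.69 with a 95% interval of -0.87 to -0.52 (adjusted p = 0.000442). It lies on chromosome 6 from 108402879 to 108450990 (ENSSSCG00000003707). NPC2, the soluble protein that hands cholesterol to NPC1, had 398 and 388 CPM in siYTHDF2 libraries and 357 and 392 CPM in control libraries, with overlapping groups and an interval of -0.08 to 0.22 (adjusted p = 0.540). The intervals did not overlap, while the difference between the genes was not tested. CD63 had 607 and 597 CPM in siYTHDF2 libraries and 568 and 639 CPM in control libraries (interval -0.17 to 0.16). MCOLN1, a calcium channel of the lysosomal membrane, had 12.5 and 15.8 CPM in siYTHDF2 libraries and 17.8 and 18.3 CPM in control libraries (log2 fold change -0.34, adjusted p = 0.115). MCOLN1 was lower without siYTHDF2 replicate 2 (adjusted p = 0.0340; range 0.0340 to 0.523 over 14 alternatives).

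Of the 3 sorting members 2 were higher and 1 was not called, too few genes to give the class a direction. CLTB, a clathrin light chain, had 55.5 and 49.4 CPM in siYTHDF2 libraries and 32.2 and 37.3 CPM in control libraries (log2 fold change 0.59, SE 0.10, adjusted p = 0.00427). AP1S1, a small subunit of the AP-1 adaptor, had 107 and 92.6 CPM in siYTHDF2 libraries and 70.9 and 71.6 CPM in control libraries (log2 fold change 0.48, SE 0.08, adjusted p = 0.00401). Both siYTHDF2 libraries were above both controls for each, at 150.9% and 139.9% of the control mean. CLTB (ENSSSCG00000054091) lies on chromosome 2 from 81464917 to 81485419 and AP1S1 (ENSSSCG00000021145) on chromosome 3 from 8881107 to 8887566. M6PR, the cation-dependent mannose 6-phosphate receptor, stood at 279.5 and 272 CPM in siYTHDF2 libraries and 287 and 299 CPM in control libraries (log2 fold change -0.09, 95% interval -0.23 to 0.06). Its siYTHDF2 pair lay below its control pair, but it was not called (edgeR adjusted p = 0.388).

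Neither transcription factor was called by edgeR, DESeq2 or limma, and 0 of the 2 had an unadjusted p under 0.05. TFEB had 12.7 and 13.7 CPM in siYTHDF2 libraries and 13.8 and 12.6 CPM in control libraries, with overlapping groups and a 95% interval of -0.29 to 0.29. TFE3 was more abundant per length, at 21.3 FPKM in siYTHDF2 and 21.1 FPKM in control libraries against 4.65 and 4.86 FPKM for TFEB. Its CPM was 94.8 and 93.3 in siYTHDF2 libraries and 90.3 and 87.4 in control libraries (log2 fold change 0.08, interval -0.07 to 0.24, adjusted p = 0.456). These values are mRNA levels, and the location of the proteins, through which TFEB and TFE3 are known to be controlled, was not measured.

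Other genes of the pathway were read from 6 lists of further lysosome genes. These lists, too, were chosen with earlier results of these data known. Of 119 such genes tested, 29 were lower and 5 higher, with a median log2 fold change of -0.12, beside 10.6% lower and 9.05% higher among all tested genes. The number of higher genes was 0 without control replicate 1, 1 without siYTHDF2 replicate 1, 2 without siYTHDF2 replicate 2 and 3 without control replicate 2. The 72 tested genes that carry the KEGG lysosome term and are not among the 43 had 14 lower (19.4%) and 4 higher. Among tested genes with a mean of at least 10 CPM, 14.2% were lower and 13.5% higher. The 72 genes were not kept separate from the 119, so these counts are not independent.

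Among 27 other hydrolases 9 (33.3%) were lower and none higher in edgeR (median -0.21 on the log2 scale). Among 24 other membrane proteins 5 (20.8%) were lower and none higher (median -0.17). The shares over all tested genes were 10.6% lower and 9.05% higher, and at a mean of at least 10 CPM 14.2% and 13.5%. For both lists 0 genes were higher at an unadjusted p under 0.05, in DESeq2 or in limma. SCPEP1, a carboxypeptidase-like protein, had 312 and 312 CPM in siYTHDF2 libraries and 398 and 401 CPM in control libraries (log2 fold change -0.36, adjusted p = 0.00377). PLBD2, a phospholipase-like protein, had 95.6 and 105 CPM in siYTHDF2 libraries and 134 and 129 CPM in control libraries (log2 fold change -0.39, adjusted p = 0.00622). The siYTHDF2 pair lay below the control pair for both. Among the membrane proteins SIDT2, a transmembrane protein of lysosomes, had a log2 fold change of -0.67 (adjusted p = 0.00406), TMEM106B -0.45 and MFSD12, needed for cysteine import, -0.35. CD164, a sialomucin, had -0.23 (adjusted p = 0.0279), a call lost when any 1 of the 4 libraries was left out (adjusted p = 0.0663 to 0.125).

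Of 16 V-ATPase genes 4 were lower and 1 higher (median -0.04). For comparison, 14.2% of tested genes with a mean of at least 10 CPM were lower and 13.5% higher. Log2 fold changes were negative for 8 of the 16 genes and positive for 8, so the list as a whole showed no direction. The lower genes are therefore described singly, and the gap to these shares was not tested. ATP6AP1, an accessory subunit of the pump, had 77.1 and 75.8 CPM in siYTHDF2 libraries and 174 and 185 CPM in control libraries, the lowest fold change of the list at -1.23 (SE 0.07, adjusted p = 1.09e-05). ATP6V0A1, of the membrane sector, had 19.4 and 24.5 CPM in siYTHDF2 libraries and 47.5 and 43.6 CPM in control libraries (log2 fold change -1.05, SE 0.12, adjusted p = 0.000550). ATP6V1A, the catalytic subunit, and ATP6V1G1, of the stalk, had log2 fold changes of -0.66 and -0.45. The higher gene, ATP6V1F, chosen after its values were seen, had 0.34 (adjusted p = 0.0480) and lost its call in 8 of 14 alternatives. With all libraries kept, these included median ratio scaling in place of TMM (edgeR adjusted p = 0.0501) and limma on log2(FPKM + 1) (adjusted p = 0.197). They also included the fits without siYTHDF2 replicate 1 (log2 fold change 0.27) and without control replicate 1 (log2 fold change 0.19).

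The 29 other sorting genes had 5 lower and 4 higher members. Both counts were close to the shares among all tested genes with a mean of at least 10 CPM, 14.2% lower and 13.5% higher. GNPTAB, the catalytic subunit of the enzyme that makes the mannose 6-phosphate tag, had 394 and 447 CPM in siYTHDF2 libraries and 687.5 and 653 CPM in control libraries (log2 fold change -0.67, SE 0.08, adjusted p = 0.000435). GNPTG, its gamma subunit, was not called (-0.03, 95% interval -0.29 to 0.23), nor was IGF2R, the larger mannose 6-phosphate receptor (-0.16, adjusted p = 0.294). The sorting receptors SORL1 and SORT1 had log2 fold changes of -0.78 (adjusted p = 0.0106) and -0.38 (adjusted p = 0.0112), and the adaptor GGA2 had -0.39 (adjusted p = 0.0180). Without control replicate 1 the SORL1 call (adjusted p = 0.0605; range 0.00207 to 0.146) and the SORT1 call (adjusted p = 0.0520; range 0.000245 to 0.111) were lost. The GGA2 call was lost without siYTHDF2 replicate 2 (adjusted p = 0.0750) and without control replicate 2 (adjusted p = 0.0581; range 0.00613 to 0.136).

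The 4 higher sorting genes, named after their values were seen, were the clathrin light chain CLTA and the AP-1 subunits AP1M1, AP1S2 and AP1S3, at 0.26, 0.24, 0.24 and 0.57 on the log2 scale. Each of these 4 calls was lost without control replicate 1 (adjusted p = 0.121, 0.0813, 0.126 and 0.163). The CLTA call was also lost without siYTHDF2 replicate 1 (adjusted p = 0.126) and replicate 2 (adjusted p = 0.0528), that of AP1M1 without any of the other libraries (adjusted p = 0.0798 to 0.138), that of AP1S2 without siYTHDF2 replicate 1 (adjusted p = 0.232) or control replicate 2 (adjusted p = 0.0657), and that of AP1S3 without siYTHDF2 replicate 2 (adjusted p = 0.159). Over 14 alternatives the adjusted p reached 0.545 for CLTA, 0.607 for AP1M1, 0.608 for AP1S2 and 0.225 for AP1S3. Not every gene of the coat rose, since the clathrin heavy chain CLTC had -0.11 (adjusted p = 0.384), the AP-1 subunit AP1B1 had 0.04 (adjusted p = 0.790), and the AP-1 subunit AP1G1 was called lower at -0.22 (adjusted p = 0.0425). The AP1G1 call was lost without siYTHDF2 replicate 1 (adjusted p = 0.159), siYTHDF2 replicate 2 (adjusted p = 0.116) or control replicate 1 (adjusted p = 0.222; range 0.0147 to 0.310).

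Of 21 relatives and regulators of TFEB and TFE3, 5 (23.8%) were lower and none higher in edgeR. Among all tested genes 10.6% were lower and 9.05% higher, and at a mean of at least 10 CPM 14.2% and 13.5%. DESeq2 gave the same counts for the list, and 1 of its genes was higher at an unadjusted p under 0.05. MITF, the related transcription factor, had 8.57 and 8.23 CPM in siYTHDF2 libraries and 21.7 and 20.5 CPM in control libraries, with a log2 fold change of -1.33 and an SE of 0.12 (adjusted p = 0.000136). YWHAB, a 14-3-3 protein of the family that holds TFEB in the cytosol, had a log2 fold change of -0.53 (adjusted p = 0.000529). FLCN, the folliculin that acts on Rag GTPases in TFEB control, had -0.41 (adjusted p = 0.00998), and SUMF1, which activates sulfatases such as ARSA, ARSB and IDS, had -0.31 (adjusted p = 0.0163). The SUMF1 call was lost without siYTHDF2 replicate 2 (adjusted p = 0.0770) and control replicate 1 (adjusted p = 0.0603; range 0.00487 to 0.148). Among 3 cystatins tested, CST3, a secreted inhibitor of cysteine cathepsins, was lower at 209 and 202 CPM in siYTHDF2 libraries and 254 and 277 CPM in control libraries (log2 fold change -0.37, adjusted p = 0.00615).

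**Figure D4:**
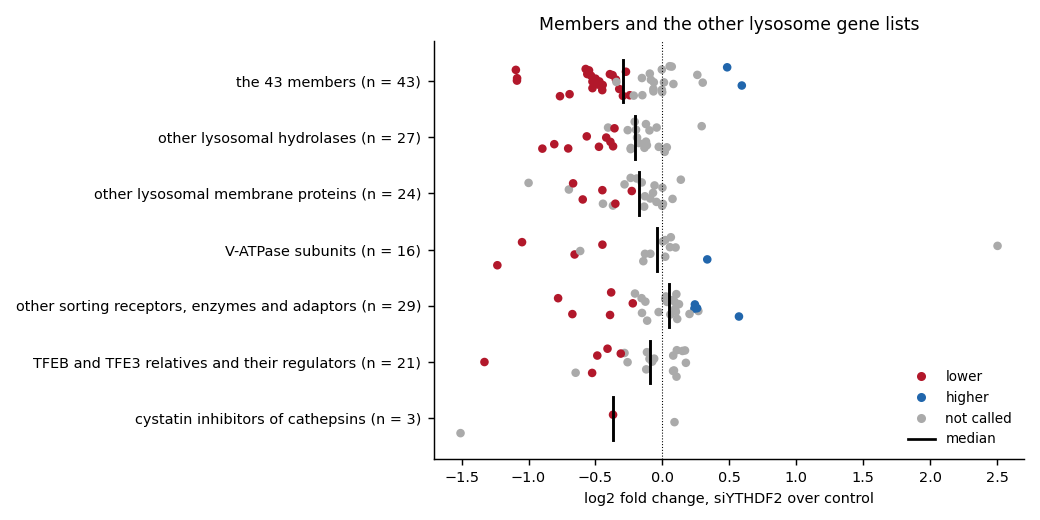
Log2 fold change, siYTHDF2 over control, of each tested gene (point) in the 43 lysosome genes and in 6 further lists, with the list median as a black line. Hydrolase and membrane protein lists have medians below 0 (-0.21 and -0.17), while the V-ATPase and sorting lists have medians of -0.04 and 0.05 with genes called on both sides.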

How the data were processed

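The authors deposited 1 table with counts and FPKM per gene and library, per the file headers. Counter, aligner, build and annotation are not given in the sources used here: a mouse build and Bowtie 0.12.2 are listed in the submitters' processing notes, and the labels' protocols speak of retinas, which a pig granulosa series does not match. Positions are those of the table; 37 of 42 members found in a table of Sscrofa11.1 genes start within 5000 bases of them.

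Counts were tested with edgeR 4.0.16 in R 4.3.3 (expression filter, TMM scaling, robust quasi-likelihood test, two-sided, group as the only term), adjusted by Benjamini-Hochberg over 15552 genes. The SE is the log2 fold change over the root of F, and intervals are 95%. CPM are TMM-scaled. FPKM served to compare genes and as the input of the limma alternatives. With 2 libraries per group an exact permutation test cannot go below p = 0.333. The procedure was tested on simulated data. DESeq2 1.42.0 and limma 3.58.1 were alternatives.

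The members and lists were chosen with earlier results of these data known. Every called member and, per further list, up to 4 called genes with the smallest p are named. Some genes that this rule would name are not reported here.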

Additional observations from a re-analysis of the deposited data

How the results depend on the processing

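The 14 alternatives reversed none of the 25 called members, and 14 of these, all lower, kept their call in every alternative. The calls of GAA, GLB1, LAMP2, AP1S1 and CLTB were lost only in limma on log2(FPKM + 1) without a filter (adjusted p = 0.0906, 0.107, 0.0616, 0.107 and 0.0594), as were those of SCPEP1, PLBD2, TMEM106B, MFSD12, FLCN and CST3 among the other lysosome genes (adjusted p = 0.0682 to 0.106). In that setting 0 members were higher and 14 lower, 246 genes were higher and 753 lower, and 1 other lysosome gene was higher and 10 lower; its cause was not tested. Higher genes numbered 1408 of those tested, 485 in limma on log2(FPKM + 1) and 481 on log2(FPKM + 0.1), each with 0 higher other lysosome genes. Leaving out 1 library gave 791 to 1287 higher genes, 0 to 3 higher other lysosome genes and 19 to 23 lower members, with the lone library assumed to vary like the other group.

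The titles number the libraries 1 and 2 in each group, but nothing says that the numbers pair cultures, and same-numbered libraries deviated with r = -0.15 over 15552 genes and r = -0.27 over the 9065 with a CPM over 10 as a mean on the log scale. With the replicate number as a block, 1020 genes were higher and 1361 lower, 2 members higher and 19 lower, and 1 other lysosome gene higher and 26 lower. The calls of CTSB, MAN2B1, NEU1 and PSAP were lost there. With crossed numbers as the block, chosen after seeing the data, 26 members were lower and 2 higher.

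Of the members not called, 9 changed sign somewhere. Leaving out 1 library moved the log2 fold change of CTSK from -0.19 to 0.040, CTSS from -0.19 to 0.26, CTSZ from -0.17 to 0.024, LGMN from -0.14 to 0.018, GUSB from -0.058 to 0.050, ASAH1 from -0.015 to 0.034, CD63 from -0.087 to 0.082 and TFEB from -0.069 to 0.067. In limma on FPKM the values were -0.012 with pseudocount 1, filtered or not, and -0.028 with 0.1 for CTSS, -0.059 and -0.060 for ASAH1, and -0.00033 and -0.00034 for NPC2. CTSS had the fewest counts of the 43 genes, 127 to 150 per library.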
